A study of Mus musculus with 8 samples.

Results

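Genes of transsulfuration and glutathione synthesis were examined in mouse regulatory T cell (Treg) libraries. The members were 8 genes of the 56980 in the deposited table, namely Cbs, Cth, Mpst, Slc7a11, Gclc, Gclm, Gss and Gsr, and they were chosen by pathway with earlier results of the comparison between HADA and control libraries known. Their values in that comparison are therefore given as a description. High-altitude de-acclimatization (HADA) is the state that follows return from low oxygen to normal air. Male C57BL/6J mice aged 8 weeks spent 28 days in a low-pressure chamber set to a simulated altitude of 6000 m and were then moved to normoxia, and control mice stayed out of the chamber. Tregs were sorted from blood by flow cytometry, with CD4 and CD25 as the surface markers used in the study, and cDNA was made with a kit for low cell input. The day of this sort after the return was not stated in the sources used here, nor was it stated whether each library came from 1 mouse. The p-values below therefore measure the spread between these libraries. There were 4 HADA and 4 control libraries.

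Sulfur of methionine reaches cysteine through transsulfuration, in which homocysteine is joined to serine and the product is cleaved. Cysteine also enters cells as cystine through an exchanger that releases glutamate. Cysteine is then joined to glutamate and to glycine in successive steps to give glutathione, the main soluble thiol of the cell, and oxidized glutathione is reduced again with NADPH. In T cells this pathway is known for buffering reactive oxygen species during activation, and Tregs depend on glutathione for their suppressive function.

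Depth was uneven between libraries. Total counts were 28240337, 22929193, 25230994 and 26590026 in HADA replicates 1 to 4 and 1477431, 14452433, 22584062 and 21587245 in control replicates 1 to 4. The control libraries were all shallower than the HADA libraries, control replicate 1 by far the most (two-sided exact permutation p = 0.029, which no comparison of 4 with 4 libraries can go below, and 0.057 after Benjamini-Hochberg adjustment over 4 library measures). Mitochondrial genes took 6.20% ± 1.07 of counts in HADA and 2.19% ± 1.32 in control libraries (SD, n = 4 each), and the groups did not overlap (exact permutation p = 0.029, adjusted p = 0.057). Haemoglobin genes took 0.094% ± 0.114 in HADA and 1.10% ± 1.33 in control libraries (exact permutation p = 0.057, adjusted p = 0.076).

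Each gene was counted over its whole span, introns included, and stretches covered by a second gene gave no counts. A gene can therefore collect counts without being expressed. The density of counts on 1747 olfactory and vomeronasal receptor genes, which are silent in blood cells and overlapped no other gene, was used in each library as the level such stray counts reach. This receptor gene density was 0.178, 0.182, 0.108 and 0.072 CPM per kb (CPM being counts scaled to a common library total) in HADA replicates 1 to 4, and 0.054, 0.734, 0.360 and 0.160 in control replicates 1 to 4. It was highest in control replicates 2 and 3 and lowest in control replicate 1, and the difference between the groups was within the spread (exact permutation p = 0.343, adjusted p = 0.343). Counts of each gene are set below against those that this density gives over the same length.

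The label of the sort could be checked only in part. Foxp3, the factor that defines Tregs, was listed at 0 in every library, and its span was 100% covered by other genes, so its level could not be read. Il2ra, which encodes CD25, had 309, 163, 287 and 748 CPM (here and below scaled by the trimmed mean of M values, TMM) in HADA replicates 1 to 4 and 178, 10.5, 7.23 and 59.5 in control replicates 1 to 4. In control replicates 2 and 3 this was 0.634 and 0.510 times the receptor gene density, and Cd4 there was at 0.476 and 0.717 times that density, so neither sort marker stood above stray counts in those libraries. Other T cell markers did in part. Ikzf2 was at 4.73 and 7.53 times that density in control replicates 2 and 3. Cd3e was at 0.692 and 126 and Ctla4 at 0.539 and 3.05 in the same libraries. The 6 Treg and CD4 T cell markers together reached from 1089 to 2894 CPM in HADA and from 232 to 923 CPM in control libraries, and these sums did not overlap between the groups. Ikzf2 was the most abundant in the mean over all libraries, and Foxp3 was at 0. Of the 5 markers tested, 1 stood apart by itself, Ctla4, which was higher in HADA, beside 9.13% of all genes tested. None was called in edgeR, and DESeq2 called Il2ra and Ctla4 higher, beside 6.98% of genes. Markers of cells that the sort should remove were also found.

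The 4 B cell markers summed to 850 to 2904 CPM in HADA and 75.1 to 2271 CPM in control libraries, Cd79a being the most abundant and Ms4a1 at 0 with its span fully covered. The 6 myeloid markers, led by Lyz2, summed to 729 to 3291 CPM in HADA and 47.1 to 1629 CPM in control libraries. The 5 erythroid markers summed to 144 to 2806 CPM in HADA and 1023 to 28270 CPM in control libraries, with Alas2 at 0. Hba-a1 led them in the mean over all libraries, but Hbb-bs was above it in control replicates 2, 3 and 4. The B cell, myeloid and erythroid sums overlapped between HADA and control libraries. Of the erythroid markers Hbb-bt stood apart and lower, beside 5.70% of all genes tested. It was at 1.20 to 81.6 CPM in HADA and 90.1 to 1018 CPM in control libraries. None of the erythroid markers was called in edgeR. DESeq2 called Hba-a1, Hba-a2, Hbb-bs and Hbb-bt lower, beside 11.5% of genes. The 5 platelet markers summed to 267 to 1662 CPM in HADA and 42.3 to 470 CPM in control libraries. Ppbp led them in the mean over all libraries, but Pf4 was above it in control replicates 2, 3 and 4. Gp9 stood apart and higher in HADA, beside 9.13% of all genes tested. None of the platelet markers was called in edgeR, which did not test Gp1bb. DESeq2 called Pf4, Gp9 and Gp1bb higher, beside 6.98% of genes. The 3 NK cell markers, led by Klrd1, summed to 0.827 to 54.0 CPM in HADA and 1.45 to 88.2 CPM in control libraries. DESeq2 called Klrb1c higher, which was not tested in edgeR, and edgeR called none of the NK cell markers. The 2 CD8 T cell markers, led by Cd8b1, summed to 29.1, 14.5, 73.1 and 176 CPM in HADA replicates 1 to 4 and to 0.621, 2.76, 1.89 and 2.09 CPM in control replicates 1 to 4. These sums stood apart between the groups, and Cd8b1 rose in HADA (log2 fold change 4.97, SE 1.003, n = 4 each, edgeR quasi-likelihood fit, Benjamini-Hochberg adjusted over 21991 genes, adjusted p = 0.030). That call held in 3 of the 8 fits that each left out 1 library, without HADA replicate 2, HADA replicate 4 or control replicate 1. With all libraries kept it was lost with depth made equal by sampling counts (log2 fold change 3.28, adjusted p = 0.082), with the replicate number of the labels as a block (adjusted p = 0.083) and with the receptor background subtracted (adjusted p = 0.099). Cd8a did not pass in edgeR (adjusted p = 0.089). DESeq2 called both Cd8a and Cd8b1 higher, beside 6.98% of genes. Cd8a had 4 and 6 counts in HADA replicates 1 and 2, below the receptor gene density, and 464 and 1101 in HADA replicates 3 and 4, so the CD8 T cell sums of HADA replicates 1 and 2 were almost all Cd8b1. The part of other cells in the results below was not tested, and in bulk libraries fewer cells of a type and less RNA per cell cannot be told apart.

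**Figure D1:**
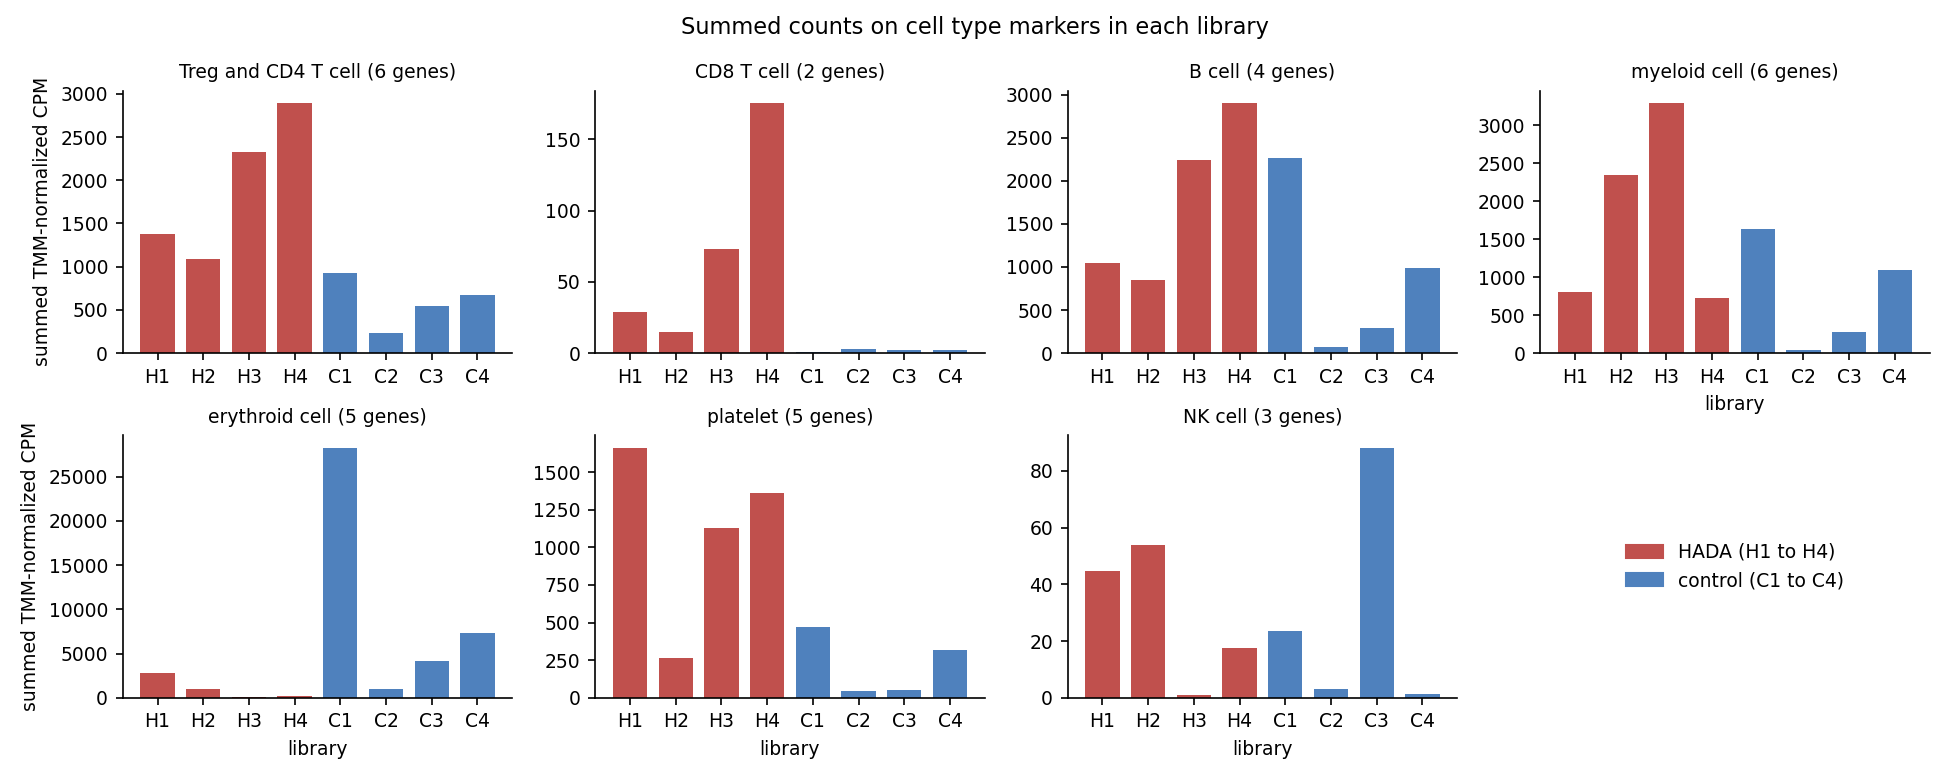
Summed TMM-normalized CPM of the markers of each cell type in HADA (H1 to H4, red) and control (C1 to C4, blue) replicates 1 to 4, on linear axes from 0. The CD8 T cell sums are 14.5 CPM or more in each HADA library and 2.76 CPM or less in each control library, and the Treg and CD4 T cell sum is lowest in control replicate 2, at 232 CPM.

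Cbs encodes cystathionine beta-synthase, which joins homocysteine to serine in the first step of transsulfuration. The gene (ENSMUSG00000024039) lies on the minus strand of GRCm39 at chr17:31827868-31856212 and no other gene overlaps it. Cbs was at 55.3, 49.1, 22.3 and 26.5 CPM in HADA replicates 1 to 4 and at 0, 2.07, 1.85 and 1.22 CPM in control replicates 1 to 4. All 4 HADA libraries lay more than 10 times above the highest control library, and the groups did not overlap. The counts behind these values were 1401, 1173, 377 and 441 in HADA and 0, 66, 53 and 21 in control libraries. The 0 in control replicate 1 allows up to 1.86 CPM (3 counts, counting error only), which is still below every HADA library. Set against the receptor gene density, Cbs stood at 9.85, 9.91, 4.90 and 8.13 in HADA replicates 1 to 4 and at 0, 0.219, 0.230 and 0.215 in control replicates 1 to 4. In the control libraries Cbs thus did not rise above stray counts, whereas in every HADA library it did.

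The log2 fold change of Cbs, HADA over control, was 4.79 (SE 1.02, n = 4 each) in edgeR. Of the 8 members 7 passed the filter on low counts, Mpst being left out, and Cbs was the only member past both thresholds (an adjusted p under 0.05 together with a log2 fold change larger than 1 in size), beside 1.65% of all 21991 genes tested that were called higher by this rule. Nothing is read from that count, since the members were chosen with this contrast known. DESeq2 also called 1 member higher, Cbs, beside 6.98% of genes. The call of Cbs changed with the libraries kept and with the method. Of the 8 fits that each left out 1 library, Cbs passed only in the fit without control replicate 1, in which 15.5% of 24048 genes tested were called higher, and without any of the other 7 libraries its adjusted p was above the threshold, with a range from 0.006 to 0.133 over the 8 fits (edgeR quasi-likelihood fit, Benjamini-Hochberg adjusted). Its log2 fold change stayed between 4.46 and 5.13 in these fits. Without control replicates 2 and 3 together, a choice made after seeing the data, it was 5.64 (SE 1.48) and did not pass. With all libraries kept, Cbs did not pass either with depth made equal by sampling counts (log2 fold change 3.27, SE 1.16, adjusted p = 0.090), with the receptor background subtracted (12.1, SE 3.50, adjusted p = 0.099) or with a replicate block (4.85, SE 1.27, adjusted p = 0.085). After that subtraction Cbs was at 0 in all 4 control libraries, so the 12.1 is no measured size.

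The sequence before the start of Cbs is shown because Cbs carries the clearest contrast among the members. It is taken from the RefSeq promoter table (GRCm38.p6), in which 5 of the 8 members matched by symbol, and was placed by exact match at chr17:31856213-31856429 on the minus strand of GRCm39. Capitals mark ACGTG, the core of the hypoxia response element, found on both strands where the matches overlap as CACGTG, which is also an E-box.
Cbs: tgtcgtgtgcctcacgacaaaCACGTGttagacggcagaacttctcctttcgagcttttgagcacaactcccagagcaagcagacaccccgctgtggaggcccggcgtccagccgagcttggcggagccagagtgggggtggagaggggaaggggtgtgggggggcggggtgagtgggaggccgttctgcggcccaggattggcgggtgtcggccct
ACGTG on either strand occurred in 19.6% of 32851 promoter windows of 300 bases, so a match is common, and it describes letters and not a bound site.

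Cth encodes cystathionine gamma-lyase, which cleaves cystathionine to release cysteine. Cth (ENSMUSG00000028179, chr3:157599885-157630714, minus strand) was at 1.82, 2.43, 1.42 and 0.962 CPM in HADA replicates 1 to 4 and at 3.73, 8.45, 6.46 and 4.40 CPM in control replicates 1 to 4. The HADA libraries were all below the control libraries, the opposite order to Cbs, with control replicate 2 highest. This gave a log2 fold change of −1.81 (SE 0.62, n = 4 each), which did not pass. Without control replicate 1 it was −1.80 (SE 0.45) and did pass (adjusted p = 0.021), the only fit without 1 library in which Cth did, but 19.7% of the 24048 genes tested in that fit were called lower. Relative to the receptor gene density Cth was at 0.292 to 0.486 in HADA libraries and at 0.890, 0.796 and 0.771 in control replicates 2, 3 and 4. It stood above that density only in control replicate 1, at 2.63, from 6 counts. Most counts on Cth were thus no denser than those on receptor genes in the same library.

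Mpst encodes mercaptopyruvate sulfurtransferase, which moves sulfur from a product of cysteine breakdown to acceptor thiols and to hydrogen sulfide. Mpst (ENSMUSG00000071711, chr15:78290616-78298213, plus strand) had 1 to 15 counts in HADA and 2 to 10 counts in control libraries, too few to pass the filter. It lay below the receptor gene density in every library except control replicate 1, where 2 counts gave 3.30 times that density. DESeq2, which did test Mpst, gave a log2 fold change of −0.48 and did not call it (DESeq2, adjusted p = 0.753).

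**Figure D2:**
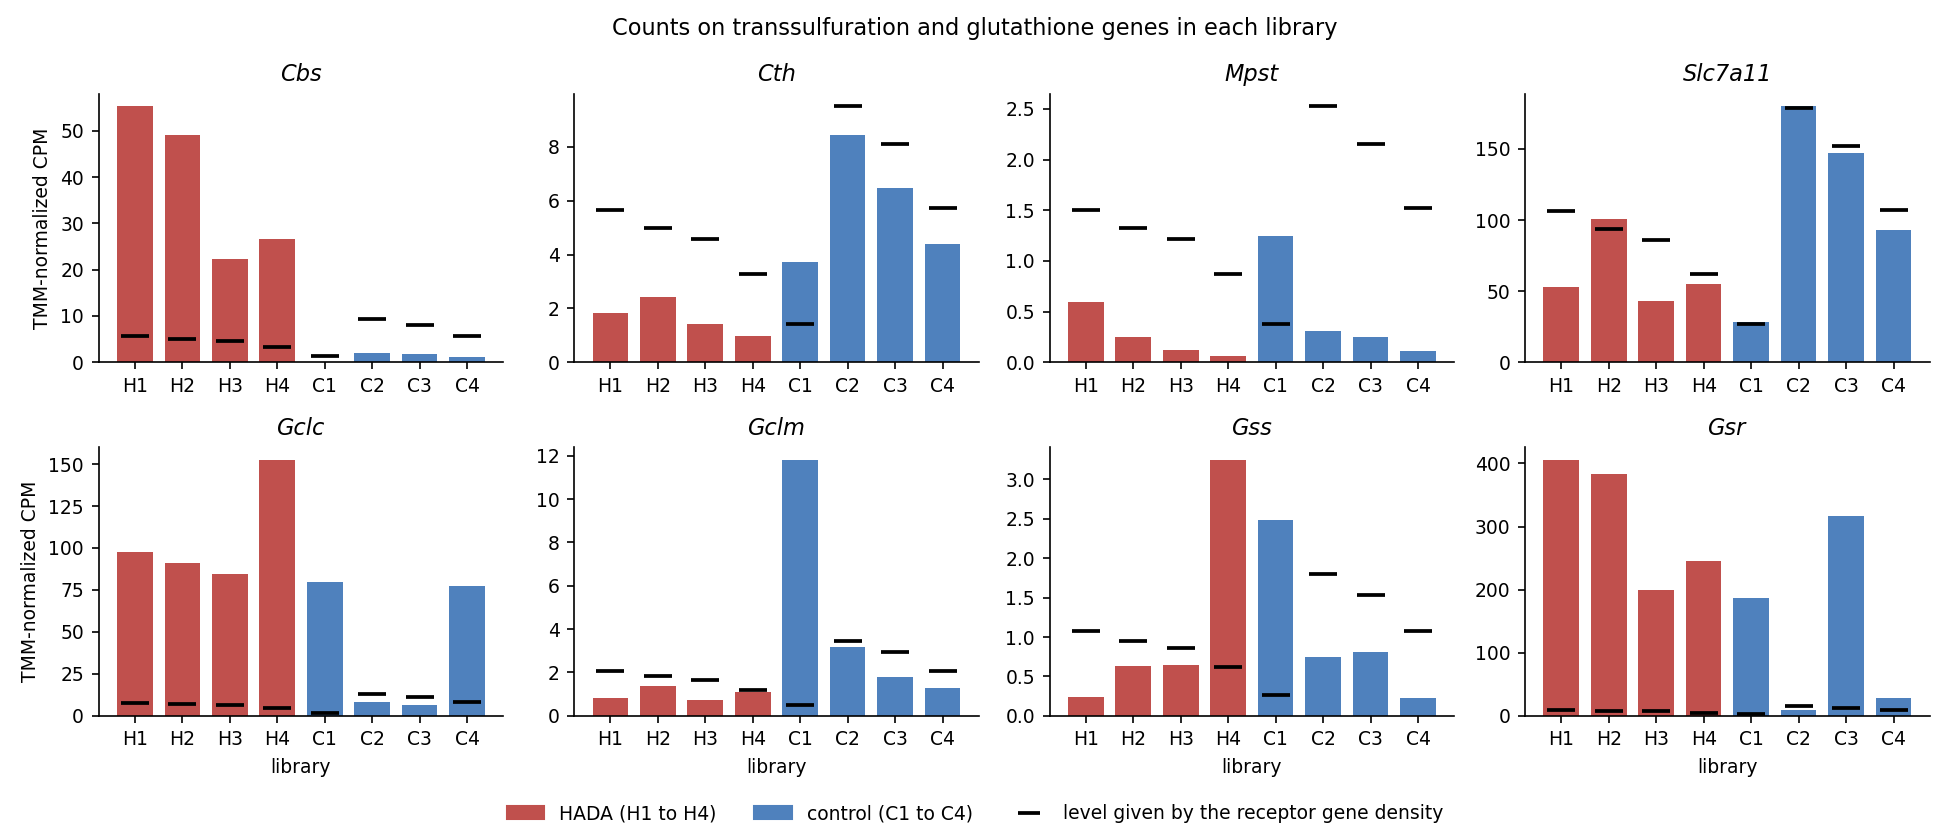
TMM-normalized CPM of the 8 members in HADA (H1 to H4, red) and control (C1 to C4, blue) replicates 1 to 4, on linear axes from 0 that differ between panels. Black dashes give the CPM that the receptor gene density of the library would place on the gene. Cbs is above its dash only in the HADA libraries, where it runs from 22.3 to 55.3 CPM, and Slc7a11 follows its dash in the control libraries.

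Slc7a11 encodes the cystine and glutamate exchanger xCT, the route by which cystine enters cells. Slc7a11 (ENSMUSG00000027737, chr3:49846975-50398063, minus strand) has the longest span of the members at 551089 bases. It was at 52.7, 101, 43.2 and 54.9 CPM in HADA replicates 1 to 4 and at 28.6, 180, 147 and 92.7 CPM in control replicates 1 to 4. The groups overlapped, with control replicate 1 the lowest and control replicates 2 and 3 the highest. The log2 fold change was −0.84 (SE 0.77, n = 4 each), and no alternative passed the thresholds. The value moved widely between alternatives, from −2.24 (SE 0.91) with depth made equal and −1.86 (SE 0.86) with at least 10 counts required in every library to 0.05 (SE 0.85) without control replicates 2 and 3. As a ratio to the receptor gene density, Slc7a11 was at 0.495, 1.07, 0.502 and 0.888 in HADA replicates 1 to 4 and at 1.07, 1.01, 0.965 and 0.864 in control replicates 1 to 4. In no library did it rise more than 1.07 times above stray counts, so its CPM did not separate from a silent gene of the same length.

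The sequence before Slc7a11 is shown because it was the only window of a member with TGATGNAA, the core of the C/EBP-ATF response element (N is any base). It lies at chr3:50398064-50398312 on the minus strand of GRCm39, and capitals mark the match on each strand.
Slc7a11: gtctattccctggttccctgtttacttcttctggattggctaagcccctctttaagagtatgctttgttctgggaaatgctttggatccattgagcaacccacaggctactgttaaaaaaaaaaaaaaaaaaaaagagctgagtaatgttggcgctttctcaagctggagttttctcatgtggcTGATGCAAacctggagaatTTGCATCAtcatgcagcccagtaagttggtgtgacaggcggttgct
This core was held by 3.97% of the 32851 windows. The antioxidant response element core TGACNNNGC, held on either strand by 12.4% of windows, was found before Gclm and Mpst, and ACGTG was found before Gclm as well as Cbs. The Gss window held none of the 3 cores, which says only that these letters are not in it.

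Gclc encodes the catalytic subunit of glutamate-cysteine ligase, the rate-limiting enzyme of glutathione synthesis. Gclc (ENSMUSG00000032350, chr9:77661817-77701767, plus strand, no overlapping gene) was at 97.3, 91.2, 84.6 and 152 CPM in HADA replicates 1 to 4 and at 79.5, 8.24, 6.25 and 77.4 CPM in control replicates 1 to 4. Every HADA library was above every control library, narrowly so for control replicates 1 and 4 and by more than 10 times for control replicates 2 and 3. Relative to the receptor gene density Gclc was at 12.3, 13.1, 13.2 and 33.2 in HADA replicates 1 to 4 and at 40.2, 0.620, 0.552 and 9.70 in control replicates 1 to 4. Control replicates 2 and 3 thus held Gclc at no more than stray counts. Il2ra and Cd4 were also below that density there, while Ikzf2 was above it in both libraries. Cd3e and Ctla4 were above it in control replicate 3. The log2 fold change was 1.32 (SE 0.93, n = 4 each), and no alternative passed the thresholds. It was 0.32 (SE 0.92) with depth made equal, 0.45 (SE 0.69) without control replicates 2 and 3 and 2.13 (SE 1.12) with a replicate block.

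Gclm encodes the modifier subunit of the same ligase, which lowers the enzyme's need for glutamate. Gclm (ENSMUSG00000028124, chr3:122039206-122064381, plus strand) was at 0.828, 1.38, 0.709 and 1.08 CPM in HADA replicates 1 to 4 and at 11.8, 3.19, 1.78 and 1.28 CPM in control replicates 1 to 4. The groups overlapped by 1 HADA library, and control replicate 1 was highest, from 19 counts. Other genes covered 58.7% of its span, so reads there were not counted for Gclm. This gave a log2 fold change of −2.04 (SE 0.77, n = 4 each), and without control replicate 1 it was −0.90 (SE 0.42). Against the receptor gene density, Gclm was at 0.402 to 0.904 in HADA libraries, at 0.604 to 0.924 in control replicates 2, 3 and 4, and at 22.9 in control replicate 1. Apart from that shallow library, the subunit partner of Gclc was thus not seen above stray counts.

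Gss encodes glutathione synthetase, which adds glycine in the last step of synthesis. Gss (ENSMUSG00000027610, chr2:155405101-155434730, minus strand) had 6 to 54 counts in HADA and 4 to 24 counts in control libraries, and 81.8% of its span was covered by other genes. Its CPM ran from 0.237 to 3.25 in HADA and from 0.232 to 2.49 in control libraries, and the groups overlapped fully. Gss stood above the receptor gene density only in HADA replicate 4, at 5.22, and in control replicate 1, at 9.28. Its log2 fold change was 0.54 (SE 0.88, n = 4 each), and it was −0.52 (SE 0.79) without HADA replicate 4.

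Gsr encodes glutathione reductase, which returns oxidized glutathione to its reduced form with NADPH. Gsr (ENSMUSG00000031584, chr8:34142551-34188191, plus strand) was at 406, 384, 199 and 246 CPM in HADA replicates 1 to 4 and at 187, 9.14, 317 and 28.3 CPM in control replicates 1 to 4. The HADA libraries were all high, and the control libraries were split, with replicates 1 and 3 near the HADA range and replicates 2 and 4 far below it, so the groups overlapped. Its ratio to the receptor gene density was 45.0, 48.3, 27.3 and 47.0 in HADA replicates 1 to 4 and 83.0, 0.605, 24.6 and 3.11 in control replicates 1 to 4. The log2 fold change was 1.19 (SE 0.97, n = 4 each), with alternatives from −0.15 (SE 0.91) with depth made equal to 2.06 (SE 1.07) without control replicate 3 and 2.19 (SE 1.22) with a replicate block. Control replicate 3 held Gsr at 317 CPM, while Gclc, Il2ra and Cd4 were not above stray counts there. Cd3e, Ikzf2 and Ctla4 were above them in that library, at 126, 7.53 and 3.05 times the receptor gene density.

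**Figure D3:**
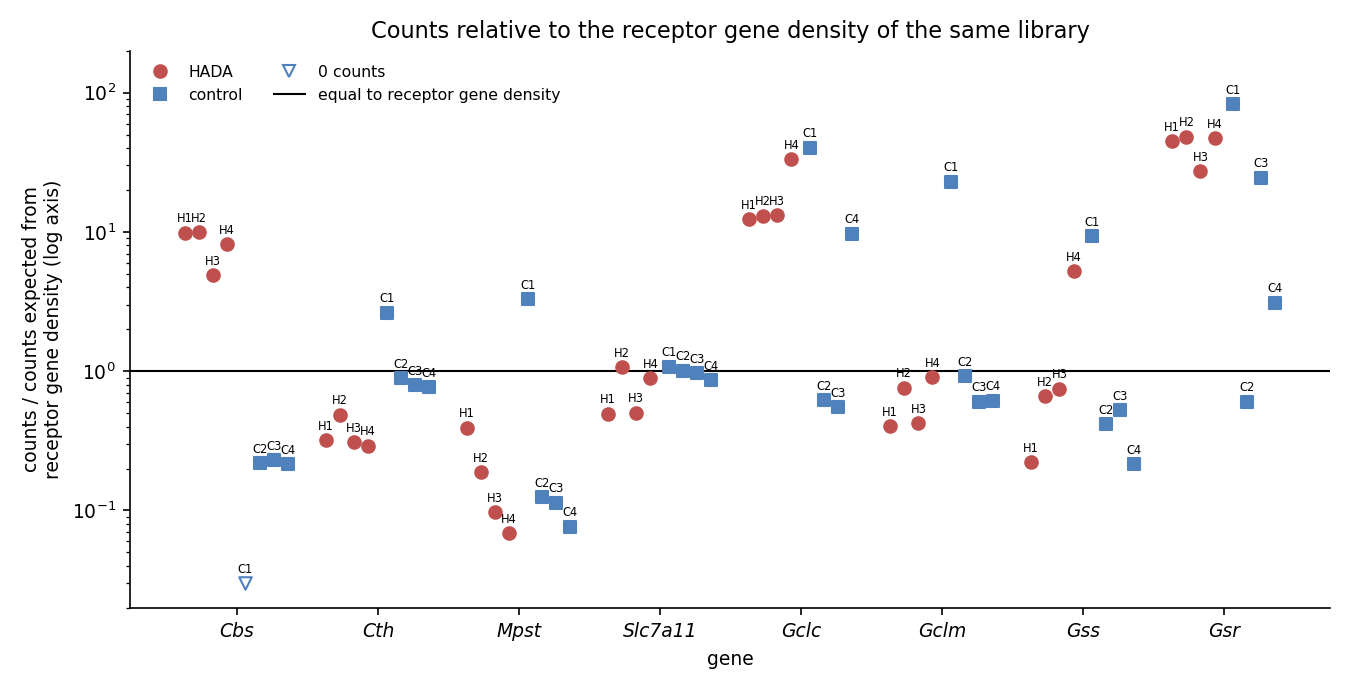
Counts of each member divided by the counts that the receptor gene density of the same library would place on its countable length, on a log axis, for HADA (circles) and control (squares) libraries. The line at 1 marks equality, and the open triangle marks 0 counts. Gsr, Gclc and Cbs lie above the line in each HADA library, from 4.90 to 48.3, and Slc7a11 lies at or below 1.07 in each library.

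Levels were compared between members as CPM per kb of countable length. In HADA libraries Gsr was highest at 6.78 ± 2.24, followed by Gclc at 2.66 ± 0.781 and Cbs at 1.35 ± 0.576 (SD, n = 4 each), and the ranges of these 3 genes did not overlap. Gss was next at 0.220 ± 0.256, then Slc7a11 at 0.117 ± 0.048, Gclm at 0.096 ± 0.029, Cth at 0.058 ± 0.022 and Mpst at 0.034 ± 0.031, and from Gss on the ranges of neighbours in this order overlapped. Of these neighbouring pairs, only Gclm above Cth kept its order in all 4 HADA libraries. Slc7a11 reached at most 1.07 times the receptor gene density there, and Gclm, Cth and Mpst stayed below it. Gss was above it only in HADA replicate 4. This part of the order thus mostly ranks values that did not stand above stray counts. In control libraries Gsr at 2.98 ± 3.19 and Gclc at 1.07 ± 1.03 had the highest means. In control replicate 2 Slc7a11, Gclm and Cth were above both, and in control replicate 3 they were above Gclc. Slc7a11, Gclm, Cth and Gclc in these libraries, and Gsr in control replicate 2, were at 1.01 times the receptor gene density or less. Those orders thus rank values at the level of stray counts. Cbs at 0.045 ± 0.033 and Mpst at 0.063 ± 0.068 had the lowest means and did not differ beyond their spread. Mpst was below Cbs in control replicates 2, 3 and 4, and above it only in control replicate 1, from 2 counts against 0.

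Of the 7 members tested, 2 did not overlap between the groups in CPM and were higher in HADA, Cbs and Gclc, beside 9.13% of all genes tested, and 1 did so and was lower, Cth, beside 5.70%. No member was called lower by edgeR with all libraries, beside 0.477% of genes, and 1 was, Cth, without control replicate 1, beside 19.7%. At an unadjusted p below 0.05 with the same fold threshold 2 members were lower, Cth and Gclm, beside 14.7% of genes, and DESeq2 called the same 2 lower, beside 11.5%. Positive log2 fold changes were found for 4 members and negative ones for 3, with a median of 0.54 beside 0.01 over all genes tested.

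The genes whose log2 CPM over the 8 libraries was most like that of Cbs were Nectin4 (Pearson r = 0.998), Syndig1l (r = 0.998) and Gm31121 (r = 0.997), each with a Spearman rho of 1. For Gclc they were Gm12185 (Pearson r = 0.995, Spearman rho = 0.881), Gm21399 (r = 0.995, rho = 0.976) and Ndufa2 (r = 0.995, rho = 0.976). These values describe likeness over libraries that share group and depth.

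The other genes of the pathway were also chosen with earlier results known, and their counts are given as a description. They were taken from a textbook list of 79 genes in 9 roles. Of these, 63 were tested and 6 were fully covered by other genes, which left them at 0. In edgeR 3 rose in HADA and none fell, beside 1.65% and 0.477% of all genes. At an unadjusted p below 0.05 with the same fold threshold 13 were higher and 2 lower, beside 12.0% and 14.7% of all genes, and DESeq2 called 7 higher and 0 lower, beside 6.98% and 11.5%. The median log2 fold change of the 63 was 0.84, beside 0.01 over all genes tested. Of the 3 that rose, 2 were listed under cysteine and sulfide breakdown, a role with 8 genes tested, and no test of a role was made.

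Ethe1 encodes the mitochondrial persulfide dioxygenase, which oxidizes sulfur released from hydrogen sulfide to sulfite. Ethe1 was at 44.9, 47.8, 82.1 and 16.5 CPM in HADA replicates 1 to 4 and at 0, 1.91, 1.29 and 1.45 CPM in control replicates 1 to 4. Each HADA library was far above each control library, and the 0 in control replicate 1 again allows up to 1.86 CPM. Ethe1 rose with a log2 fold change of 5.25 (SE 1.07, higher in 4 of 4 HADA libraries, edgeR quasi-likelihood fit, Benjamini-Hochberg adjusted, adjusted p = 0.031). Relative to the receptor gene density it was at 6.73 to 24.1 in HADA and at 0 to 0.341 in control libraries, the same split as for Cbs.

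Suox encodes sulfite oxidase, which turns the sulfite formed by that route into sulfate. Suox was at 28.2, 13.7, 13.3 and 31.7 CPM in HADA replicates 1 to 4 and at 2.49, 0.470, 0.629 and 0.406 CPM in control replicates 1 to 4. The groups did not overlap, and control replicate 1, with 4 counts, was the highest control. Relative to the receptor gene density Suox was at 18.8 to 66.0 in HADA libraries and at 0.338 to 0.530 in control replicates 2, 3 and 4, but at 12.0 in control replicate 1, so the control libraries were not all at stray counts as they were for Cbs and Ethe1. Suox rose with a log2 fold change of 4.69 (SE 0.96, higher in 4 of 4 HADA libraries, edgeR quasi-likelihood fit, Benjamini-Hochberg adjusted, adjusted p = 0.031). Sqor, the quinone oxidoreductase that acts before Ethe1 and was named after its values were seen, was at 5.05, 56.7, 38.1 and 1.56 CPM in HADA replicates 1 to 4 and at 20.5, 10.5, 8.28 and 5.27 CPM in control replicates 1 to 4. The groups overlapped for Sqor, and it did not pass the thresholds (log2 fold change 1.20, SE 1.06).

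The third gene that rose was Gstp2, a glutathione transferase. Gstp2 was at 1.97, 1.89, 1.42 and 2.95 CPM in HADA replicates 1 to 4 and at 0.621, 0.376, 0.384 and 0.174 CPM in control replicates 1 to 4 (log2 fold change 2.58, SE 0.58, edgeR quasi-likelihood fit, Benjamini-Hochberg adjusted, adjusted p = 0.042). The groups did not overlap in CPM. As a ratio to the receptor gene density Gstp2 was at 1.74, 1.88, 1.54 and 4.46 in HADA replicates 1 to 4 and at 2.19, 0.197, 0.236 and 0.152 in control replicates 1 to 4. By this measure the groups overlapped, but only through control replicate 1, where the ratio came from 1 count. In 3 HADA libraries Gstp2 was close to stray counts. The counts were at most 50 in any library and Gstp1 and Gstp3 are close copies, so how reads were shared among them is uncertain. Like Cbs, all 3 genes lost the call in most fits that left out 1 library, while their log2 fold changes stayed between 4.999 and 5.684 for Ethe1, 4.39 and 5.56 for Suox and 2.38 and 2.86 for Gstp2. With all libraries kept, all 3 also lost it with a replicate block (adjusted p = 0.075 for Ethe1, 0.069 for Suox and 0.125 for Gstp2) and with the receptor background subtracted (adjusted p = 0.096, 0.630 and 0.423), and Gstp2 lost it under DESeq2 size factors (adjusted p = 0.077) and without a filter (adjusted p = 0.067). With depth made equal Ethe1 kept the call (adjusted p = 0.035), and Suox and Gstp2 were not tested. Suox and Gstp2 passed only in the fit without control replicate 1, and Ethe1 passed only in those without control replicate 1 and without HADA replicate 4, with adjusted p from 0.007 to 0.128 for Ethe1, from 0.005 to 0.145 for Suox and from 0.008 to 0.183 for Gstp2 over the 8 fits (edgeR quasi-likelihood fit, Benjamini-Hochberg adjusted).

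**Figure D4:**
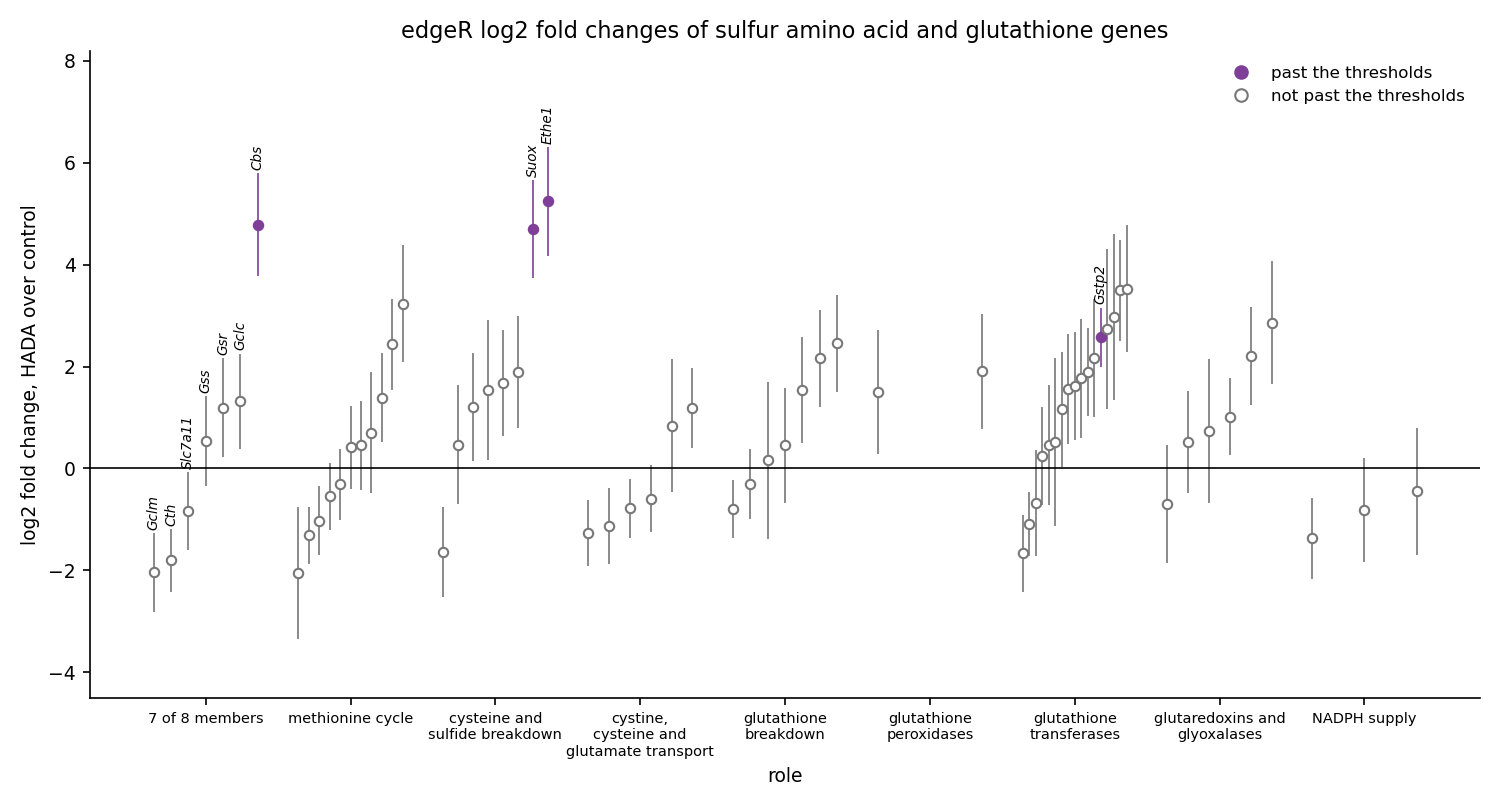
Log2 fold change, HADA over control, from edgeR for the 7 members tested and the other pathway genes tested in the roles shown, with bars of 1 SE on each side (n = 4 libraries a group). Filled points passed both thresholds. They are Cbs at 4.79, Ethe1 at 5.25, Suox at 4.69 and Gstp2 at 2.58.

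In the other roles no gene passed in edgeR. For most roles, those of Ethe1, Suox and Gstp2 included, the most abundant gene per kb of span is given here by its log2 fold change. In the methionine cycle Mat2a, which makes S-adenosylmethionine, was at 1.39 (SE 0.88). Ado, a dioxygenase of thiols in the role of Ethe1 and Suox, was at −1.65 (SE 0.88), and the amino acid carrier Slc1a5 was at 0.84 (SE 1.30). The dipeptidase Cndp2 was at 1.54 (SE 1.04) and the glutathione peroxidase Gpx1, whose span was 84.0% covered by other genes, at 1.501 (SE 1.22). Gstp1 was at 1.56 (SE 1.07), Esd, which acts on S-formylglutathione, at 1.02 (SE 0.76), and Pgd, an NADPH-forming enzyme of the pentose phosphate pathway, at −0.45 (SE 1.24). None of these differences passed the test.

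Among 4 regulators of these genes, 3 were tested and none passed in edgeR, at an unadjusted p below 0.05 or in DESeq2. Atf4, the factor of the amino acid response, was the most abundant per kb. It was at 46.9, 84.9, 241 and 72.5 CPM in HADA replicates 1 to 4 and at 83.9, 0.188, 18.6 and 146 CPM in control replicates 1 to 4 (log2 fold change 0.84, SE 1.25). The groups overlapped, and control replicate 2 held 6 counts, at 0.240 times the receptor gene density. Nfe2l2, which encodes NRF2 and acts on Gclc, Gclm, Slc7a11 and Gsr, was named after its values were seen, at 145 to 334 CPM in HADA and 4.92 to 130 CPM in control libraries (log2 fold change 1.53, SE 0.90). Its groups did not overlap, with HADA higher as for 9.13% of all genes tested, and it did not pass the test. In control replicate 2 Nfe2l2 was at 0.510 times the receptor gene density.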

How the data were processed

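The deposited table held raw counts of reads per gene, made by the authors, whose processing notes name FastQC, Trimmomatic, STAR and featureCounts with build GRCm39. Versions and counting settings were not given in the sources used here. The length column equalled the gene span for all 56980 genes, all 13380 genes fully covered by others were at 0, and so were the 7013 covered by the opposite strand, so strand was not used in counting. Ensembl identifiers were matched to GENCODE vM39 names for 98.7% of genes.

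The members and lists were chosen with earlier results of these data known. Groups came from the titles. edgeR 4.0.16 (R 4.3.3) fitted HADA against control by quasi-likelihood with trimmed mean of M values scaling, filterByExpr and Benjamini-Hochberg adjustment, and the SE was the log2 fold change divided by the square root of F. Log2 CPM used a prior count of 2. DESeq2 1.42.0 was an alternative. Library measures were compared by exact permutation in Python 3.11.15. Other pathway genes and regulators were named where past the thresholds with groups apart or the most abundant of their role per kb, markers as the most abundant of their type, and genes like Cbs and Gclc as the 3 of highest r. The gene of a further role is not reported here. Promoter windows ran from 250 bases before to 50 after the start.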

Additional observations from a re-analysis of the deposited data

Results flagged for a closer look

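In 44 groups of 4 libraries checked for a library far from the other 3, 3 stood out, about the number chance gives (1 in 20 groups, or 2.2). All 3 were control replicate 1, the library with the lowest total. Its log2 CPM was −3.34 for Cbs, where the other control libraries ran from 0.40 to 1.11, and −3.34 for Ethe1, where they ran from 0.48 to 1.01, but both values stand for 0 counts and were set by the prior count. That library allows up to 1.86 CPM for either gene, inside the range of the other controls (1.22 to 2.07 CPM for Cbs, 1.29 to 1.91 CPM for Ethe1), so no gap was measured for these genes. Its share of counts on haemoglobin genes was 3.08%, beside 0.226% to 0.583% in the other control libraries. The cause was not tested.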

How the results depend on the processing

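The main analysis called 363 genes higher and 105 lower in HADA, with 1 member (Cbs) higher and, of the other pathway genes, 3 higher and 0 lower. DESeq2 called 2099 higher and 3470 lower, with 2 members lower (Cth and Gclm) and 7 other pathway genes higher. Requiring at least 10 counts in every library left 93 genes higher and 133 lower, with 0 members (Cbs was no longer tested) and 0 other pathway genes, among 8472 genes tested. Libraries drawn down to the smallest total gave 107 higher and 156 lower, with 0 members and 1 other pathway gene higher, so more genes were lower than higher there, the reverse of the main analysis. With the receptor background subtracted 103 were higher and 106 lower, with 0 members and 0 other pathway genes. Without a filter 408 genes were higher and 54 lower. With controls 2 and 3 left out, a choice made after seeing the data, 33 genes were higher and 0 lower, with 0 members and 0 other pathway genes, and the log2 fold change of Slc7a11 turned to 0.052.

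The labels number replicates 1 to 4 in both groups. Deviations of libraries with the same number correlated at −0.207, 0.252, −0.081 and −0.003, and not every library correlated best with its own number, so the number was not taken to pair samples. With the replicate block 158 genes were higher and 11 lower, with 0 members and 0 other pathway genes higher, and Gss turned to −0.0052.

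Leaving out each library in turn gave 28 to 3716 genes higher and 1 to 4732 lower, the lowest without control replicate 3 and the highest without control replicate 1. Members called higher ranged from 0 to 1 and members called lower from 0 to 1 (Cth, without control replicate 1), other pathway genes higher from 0 to 13 and lower from 0 to 2, with the highest counts again without control replicate 1. The difference between groups ran from 6206000 to 13240000 in total counts, from 3.49 to 4.55 percentage points on mitochondrial genes and from −1.30 to −0.35 percentage points on haemoglobin genes. Gss ran from −0.52 without HADA replicate 4 to 1.09, and Gsr ran from −0.15 in the drawn-down libraries to 2.19 with the replicate block. Slc7a11 was at −2.24 in the drawn-down libraries, and Gclm at −0.90 without control replicate 1. Cbs, Cth, Gclc and Gclm kept their direction in every alternative that tested them. Cbs stayed past the thresholds with DESeq2 size factors, in DESeq2, without a filter and without control replicate 1, but not in the other 11 alternatives that tested it. Where no construction of the alternative shows it, the cause was not tested. Low total counts in control replicate 1 limit every value of a sparse gene there.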
